A study of Mus musculus with 3 samples.

Results

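Among probe sets that name a single gene, the brightest in the normal mouse lung was that of Sftpc, surfactant protein C of the type 2 alveolar cell, and the next was that of Scgb1a1, the secretoglobin of the airway club cell. The ranking covers the control array of the series, labelled normal lung. All 12422 probe sets other than the manufacturer's controls were ordered by deposited signal, out of 12488 on the array. The top 1% holds 124 probe sets (0.998% of those ranked) and the top 5% holds 621 (5.00%). A probe set is the group of short probes that reads 1 transcript or a small family of transcripts.

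The series profiled lungs of normal mice and of mice carrying a subcutaneous B16 or LLC tumour, with 1 array for each, and only the array of the normal lung enters here. Total RNA was taken from frozen tissue with TRIzol and turned into biotin-labelled cRNA. The labels name no strain, sex, age or number of animals behind the RNA. With 1 array there is no replicate, so no value below has a biological error, a standard error or a test. Probe sets differ in how strongly they bind their target, so a rank orders signals, not transcript amounts. In whole lung, more cells of a type and more RNA per cell cannot be told apart.

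The gas-exchange surface of the lung is made of flat type 1 cells and of cuboidal type 2 cells, which secrete surfactant, the lipid and protein film that keeps the air spaces open. A dense bed of capillaries lies directly under it. The conducting airways are lined by club cells, which secrete protective proteins and carry detoxifying enzymes, and by ciliated cells, which move mucus.

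Signals ran from −448.1 to 6206.2 intensity units with a median of 44.6. Negative values made up 20.3% of the probe sets. The processing that produced them is not given, and some genes with a bright probe set also have a negative one. The 95th percentile of the sizes of the negative values, 100.6, is used below as a noise level. It is a yardstick and not a detection call, and 4048 probe sets (32.6%) lay above it. The top 1% began at 1512.2, which is 33.9 times the median, and the top 5% at 529.5, which is 11.9 times the median. Of all positive signal added together, the top 1% of probe sets held 17.2% and the top 5% held 41.1%, while the probe sets below the median held 4.09%. The ranking is a smooth slope with no step at either limit. Rps3 (1512.2) and Ifitm3 (1512.4) were just inside the top 1%, and a probe set without a symbol (1507.3) and Scd2 (1496.4) just outside. At the limit of the top 5%, Cox7a2 (529.5) was inside and Lypla1 (529.4) outside.

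A gene was placed by its brightest probe set among those that carry 1 symbol, which gave 8251 genes. Choosing the brightest moves genes up, so the median gene lay at percentile 58.2 (the percent of probe sets with a lower signal), with a signal of 67. In the top 1% were 78 genes, or 0.945% of all genes, and in the top 5% were 473, or 5.73%. These shares are the background for the counts below. Above the noise level were 3256 genes, or 39.5%.

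The 4 marker genes of lung cell types were all in the top 5%. Sftpc had a signal of 6206.2 (rank 1) and Scgb1a1 one of 5424.2 (rank 3). Ager, the receptor for advanced glycation end products and a marker of type 1 cells, had 2432.3 (rank 42). Cdh5, the cadherin of endothelial junctions, had 1407.1 (rank 139). The label of the sample as lung therefore matches its epithelial markers, while Cdh5 marks endothelium and not lung as such.

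Stretches upstream of annotated starts are shown for 6 bright genes, as examples of promoters at the top of the ranking with and without the letters TATAA. They are the 60 bases before the start in RefSeq, build GRCm38.p6, written 5′ to 3′ on the gene's strand, with TATAA in capitals. Hba-a1 lies on the plus strand at chr11:32283612-32283671, Sftpb on the plus strand at chr6:72304550-72304609 and Cyp4b1 on the minus strand at chr4:115647722-115647781. Ager lies on the plus strand at chr17:34597790-34597849, Rplp0 on the plus strand at chr5:115559407-115559466 and Rps4x on the minus strand at chrX:102189392-102189451.
Hba-a1: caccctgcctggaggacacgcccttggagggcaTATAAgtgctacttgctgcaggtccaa
Sftpb: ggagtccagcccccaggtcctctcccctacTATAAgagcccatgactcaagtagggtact
Cyp4b1: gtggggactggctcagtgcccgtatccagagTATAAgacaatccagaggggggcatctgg
Ager: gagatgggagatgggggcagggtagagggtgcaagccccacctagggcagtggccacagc
Rplp0: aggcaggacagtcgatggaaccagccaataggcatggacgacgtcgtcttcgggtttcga
Rps4x: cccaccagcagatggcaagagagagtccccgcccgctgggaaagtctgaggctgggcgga
In the haemoglobin, surfactant protein B and P450 genes the motif starts 27, 30 and 29 bases before the start, and these 3 were picked because they hold it. The other 3 do not hold these letters in this window.

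Several promoter measures were examined, and TATAA was chosen after the sequences had been seen. Promoters were matched for 6572 of the 8251 genes, and the values are for the first start listed for a gene. TATAA on either strand of the 60 bases was found in 6.68% of all of them. It was found in 7 of 64 genes of the top 1% (10.9%) and in 9.42% of the top 5%. Genes between the top 5% and the median had it in 4.43%, and those of the lower part of the ranking in 9.25%. The share was thus higher at both ends than in the middle. TATAAA in the stretch from 40 to 16 bases before the start, on the gene's strand, was found in 3.13%, 3.14%, 1.82% and 4.65% of these 4 classes in the same order, against 3.04% of all. TATAAA anywhere in the 300 bases around the start (either strand) was found in 18.8%, 15.2%, 7.92% and 13.0%, against 10.4% of all. CCAAT on either strand of the 250 bases before the start was found in 39.1%, 37.2%, 35.8% and 35.8%, against 35.8%. A run of at least 8 pyrimidines over the start was found in 9.38%, 6.54%, 4.12% and 3.48%, against 4.0%, and in 26.9% of 26 ribosomal protein genes. The median number of CG pairs in 300 bases was 16, 20.5, 21 and 15, against 19. With the last start listed, an alternative chosen after seeing the data, the top 1% had TATAA in 14.1%, TATAAA from 40 to 16 bases before the start in 4.69% and TATAAA in the 300 bases in 14.1%, the last no longer above the 15.2% of the top 5%. None of these is a binding measurement. The top 1% has few genes, so a share there moves by over 1 point with each gene.

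Of the lists for lung cells, that of type 2 alveolar genes had the largest share of members in the top 1%. Of 15 on the array, 7 were in the top 1%, 11 in the top 5% and 13 above the noise level, and none was below the median signal of all probe sets. Their median percentile was 96.7. After Sftpc came Lyz2 (2702.8), lysozyme, which macrophages also make, and Cd74 (2266.2), the MHC class II invariant chain, which B cells and macrophages also make. Slc34a2 (1940.2), the phosphate transporter of these cells, was next. Sftpb had 1721.7, Scd1, a fatty acid desaturase, had 1598.8 and Napsa, the protease that processes surfactant protein, had 1547.1. The 7 genes were thus spread over the whole of the top 1%, though not all of them are particular to surfactant-making cells. Sftpd, the collectin of the surfactant, had the lowest signal of the list at 63.2 (percentile 56.9), below the noise level. It has 1 probe set on the array. Ctsh, with 669.1, was the median member.

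Type 1 alveolar genes had 4 of 13 in the top 1%, 8 in the top 5% and a median percentile of 97.0, somewhat below the club cell genes described next. Ager was joined by Hopx (2414.6), a homeodomain protein, Ahnak (1684.8), a large scaffold protein, and Cav1 (1567.8), the coat protein of caveolae, which capillary endothelium also makes. Igfbp6 (709.4) was the median member. The lowest was Col4a3, a basement membrane collagen chain, with 1.2.

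Club and secretory airway genes had 5 of 13 in the top 1%, 8 in the top 5% and a median percentile of 98.1. Beside Scgb1a1 these were enzymes of retinoid and xenobiotic metabolism and Hp, haptoglobin, which binds free haemoglobin. Aldh1a1, a retinaldehyde dehydrogenase, had 2921.4, and the P450 enzymes Cyp4b1 and Cyp2f2 had 2130.1 and 1883. Hp had 1909.6. Cyp2b10 (944.9) was the median member. Cyp2b19 was lowest with −110. The high rank of the airway P450 enzymes did not extend to their family, of whose 39 members 3 were in the top 5% and 12 were negative, with a median percentile of 31.1. The 3 were Cyp4b1, Cyp2f2 and Cyp2b10.

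Ciliated, basal and neuroendocrine genes ranked low. Of 10 ciliated genes, 1 was in the top 5%, the alpha tubulin Tuba1a (2136.6), which most cells make. Foxj1, the transcription factor of motile cilia, had 116.2 and was the other member above the noise level. Dnah8 (50.3) and Tubb4a (46.7) followed, and Rsph1 was lowest with −38.1. The median percentile was 43.9. Of 10 neuroendocrine and basal genes none was above the noise level, and their median percentile was 24.4. Uchl1 was highest with 62.9, ahead of Trp63 (32.5), the regulator of basal cells, and Chga, chromogranin A, was lowest with −93.1.

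Endothelial genes were broad rather than extreme. Of 33, 1 was in the top 1% and 12 were in the top 5%, 26 were above the noise level, and the median percentile was 91.3. Eng, the endothelial co-receptor for TGF-beta ligands, led with 2156.9, ahead of Cdh5 (1407.1), Ramp2 (1326), a receptor partner of adrenomedullin, and Cldn5 (1247.2), a tight junction protein. Vwf (354.1), von Willebrand factor, was the median member. Kdr, the VEGF receptor of blood vessels, had 576.9 and Pecam1, the platelet and endothelial adhesion molecule, had 303.6, so familiar endothelial markers were far apart, from rank 139 for Cdh5 to rank 1358 for Pecam1. Podxl was lowest with −112.

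Fibroblast and matrix genes had 3 of 33 in the top 1% and 13 in the top 5%, with a median percentile of 87.8. Inmt, a methyltransferase, led with 3600.4 (rank 11). Gpx3, the secreted glutathione peroxidase, had 2756, Bgn, the proteoglycan biglycan, had 2078.4 and Serping1, the C1 inhibitor, had 1106.6. Col6a3 (279.3) was the median member. The main fibrillar collagen chains were lower, with Col1a2 at 333.5, Col1a1 at 296.3 and Col3a1 at 217.8. Among all 31 collagen chains 3 were in the top 5%, led by the basement membrane chains Col4a1 (942.2) and Col4a2 (792.2). Vcan was the lowest fibroblast gene with −34.8.

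Smooth muscle and pericyte genes had 4 of 15 in the top 5%, namely Actg2 (1100.3), Postn (894.7), Mylk (888.1) and Tpm1 (748.7), and a median percentile of 80.7. Notch3 (184.8) was the median member and Smtn, smoothelin, was lowest with −108.8. Actg2 was read by 1 probe set, whose name suffix f marks probes shared within a gene family. Of 7 mesothelial genes none was in the top 5%, and Krt8, a keratin that other epithelia also make, led with 364.1.

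Among immune cells, macrophage and monocyte genes ranked highest. Of 33, 5 were in the top 5% and 22 were above the noise level, with a median percentile of 75.6. Lyz2 led, ahead of the lysosomal proteases Ctss (975.3), Ctsd (889.3) and Ctsb (768.4). C1qb (143.1) was the median member. Marco, a scavenger receptor of alveolar macrophages, was lowest with −53.1. Neutrophil genes had none of 18 in the top 5% and a median percentile of 52.3. S100a8 (484.7) and S100a9 (304.6), the subunits of calprotectin, led that list, ahead of Lcn2 (288.9) and Csf3r (204.6), and the protease gene Mmp8 was lowest with −147.3.

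T and NK cell genes had a lower median signal than B cell genes, 16 against 72. Both medians lie below the noise level, where signals have no reliable order. T and NK cell genes had none of 23 in the top 5%, 4 above the noise level and a median percentile of 34.7. Ccl5, a chemokine, led with 348.9, followed by Gzma (133.4), a granzyme, and Cd4 (123.9). Cd3e, a CD3 chain of the T cell receptor complex, was lowest with −59. B cell and plasma cell genes had 2 of 19 in the top 5%, Xbp1 (677), which other secretory cells also make, and Ighm (607). Ighm, the immunoglobulin heavy chain, was placed by the brightest of its 16 probe sets. Ms4a1 (294.1), which encodes CD20, and Pax5 (249.7) followed, the median percentile was 59.8, and Ighd was lowest with −30.9. With the median probe set of each gene, the B list had a median percentile of 42.8 and the T and NK list 32.3. Dendritic and mast cell genes had none of 17 in the top 5%, with Kit (382.6) highest and Ccl17 (−110.5) lowest.

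Over all lists for lung cells, 63 of 257 genes (24.5%) were in the top 5%, beside 5.73% of all genes. Of 198 genes on the lists for other tissues and blood that no lung list holds, 7 were (3.54%). The lists were chosen with earlier results of these data known, so the contrast describes them and tests nothing. Hba-a1 (5388.4), Hbb-b2 (3680.3) and Alas2 (570.8) are red cell genes, the globin chains and the enzyme that starts haem synthesis. Sprr1b (2325.6), of squamous epithelium, and Rag1 (993.3), a recombinase of developing lymphocytes, were read by probe sets with a discordant partner, described with the probe sets below. Actc1 (670.2), cardiac actin, and Myl7 (611.4), the atrial myosin light chain, are heart genes. The second probe set of Actc1 had 312.4, outside the top 5%, and the bright one has the name suffix f, which marks probes shared within a gene family.

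Heart muscle genes had a median percentile of 65.3, and 12 of 24 were above the noise level. Myl4 (436.5), another atrial light chain, and Nppa (250.7), atrial natriuretic peptide, came after Actc1 and Myl7. The ventricular light chain Myl2 was lowest with −20.9 and Myl3 was at 0. The part of heart muscle RNA in the other values was not tested. Skeletal muscle genes had a median percentile of 37.0 with none of 20 in the top 5%, and their highest was Pvalb, parvalbumin, with 275.7.

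Genes of other organs ranked lower, to differing degrees. Liver genes had none of 27 in the top 5%, 12 negative signals and a median percentile of 24.6. Cyp2e1, which lung also expresses, was highest with 272.7, and Alb, serum albumin, had −1.2. Eye and lens genes had none of 13 above the noise level and the lowest median percentile of the tissue lists, 19.4. Pancreas and gut genes had a median percentile of 20.9, brain genes 28.1, and testis and oocyte genes 28.2. Mammary gland and placenta genes had 35.0, adipose genes 43.2, thymus genes 43.7, and oesophagus and skin genes 48.2, all below the 58.2 of all genes. The median signals of all these lists lay below the noise level, so the order among them is not reliable.

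The largest family at the very top was the cytosolic ribosome. Counted by probe sets with at least 1 ribosomal protein symbol, it held 33 of the 124 probe sets of the top 1% (26.6%) and 49 of the 621 of the top 5% (7.89%). It makes up 0.676% of all probe sets. Of those 33, 17 carry several symbols, mostly a gene and its pseudogenes or related copies, whose reads cannot be separated. Among 32 ribosomal genes with a probe set of their own, 15 were in the top 1% and 19 in the top 5%, with a median percentile of 98.5. Rpl41 (3918), Rps24 (2810.1), Rps3a1 (2521.6) and Rps4x (2437.7) led. The family was split: 9 of the 32 lay below the median signal of all probe sets, among them Rpl35a (−82), Rps13 (−80.2) and Rpl32 (−14.8). Most of these proteins occur in equal numbers in a ribosome. The large subunit had 9 of 15 genes in the top 5% and the small subunit 10 of 16.

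Other parts of the translation machinery were less uniform. Eef1a1, the factor that brings aminoacyl-tRNA to the ribosome, had 3719.3 (rank 9) and Eef2, the translocation factor, had 1343.7. Of 40 translation factors, 5 were in the top 5%, with a median percentile of 77.1, and Eif5a was lowest with −58.7. Tpt1, a small abundant protein whose mRNA is regulated with the translation machinery, had 4293.5 (rank 6).

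Cytoskeletal genes formed the next large group, with 6 of 31 in the top 1% and 15 in the top 5%, and a median percentile of 93.6. Tmsb4x, which binds free actin, had 3359.8, Actg1, cytoplasmic gamma actin, had 2704.6, and Gsn, an actin-severing protein, had 2453.8. Tubb2a (450.9) was the median member. Myl6, a light chain of non-muscle myosin, was lowest with −97.8.

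The respiratory chain and ATP synthase were high as a group without reaching the top 1% by a probe set of their own. Of 71 genes, 13 were in the top 5%, 56 were above the noise level, and the median percentile was 88.6. Cox6c (1194.8) and Cox6a1 (1072.4), of complex IV, led, ahead of Atp5l (915.9) and Atp5a1 (878.9), of the ATP synthase. By complex, 3 of 29 complex I genes, 1 of 4 complex II genes, 2 of 8 complex III genes, 3 of 15 complex IV genes and 4 of 14 ATP synthase genes were in the top 5%. The lowest was Ndufa12 with −10.3. The proteasome had 5 of 44 in the top 5% with a median percentile of 84.4, led by Psmc6 (683.9). Glycolysis had 4 of 14, led by Aldoa (1158.7), the aldolase, with a median percentile of 84.9.

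Antigen presentation was well represented. MHC class I genes had 4 of 17 in the top 1% and 6 in the top 5%, with a median percentile of 86.2. H2-K1 (3192) and H2-D1 (2871.9), the classical heavy chains, led, ahead of B2m (2321.3), the shared light chain, and H2-K2 (2243.6). The heavy chains are close copies, and their probe sets may bind several. The bright ones of H2-K1, H2-D1 and H2-K2 have the suffix f. With plain probe set names only, 8 genes of the class I list remained, with a median percentile of 66.5 among such probe sets. MHC class II genes had 4 of 12 in the top 5%, Cd74, H2-Aa (986.2), H2-Eb1 (624.8) and H2-Ea (619.4), and H2-Eb2 was lowest with 1.1.

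Genes that handle oxidants and iron also ranked high. On the iron storage and antioxidant list 8 of 14 were in the top 5% and all 14 were above the noise level, with a median percentile of 95.8. Fth1, the ferritin heavy chain, had 3156.8, Hp had 1909.6, Txn1, thioredoxin, had 1320.1 and Txnip, which binds it, had 1296.2. Glutathione transferases and peroxidases had 5 of 27, led by Gpx3 and Gstm1 (1844.1). S100 proteins and annexins had 7 of 22, led by S100a6 (1726.7), Anxa2 (1481) and Anxa5 (1388.2), all calcium-binding.

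Several families of regulators and receptors had medians below the 58.2 of all genes. None of 31 Hox genes was in the top 5% and their median percentile was 34.5. Hoxa5, a regulator of lung development, was highest with 203.2, and Hoxd9 was lowest with −264.2. None of 54 potassium and calcium channels, none of 39 chemokines and their receptors, 2 of 45 interleukins and their receptors and 2 of 89 zinc finger proteins were in the top 5%. Their median percentiles were 33.0, 38.1, 35.7 and 51.4, so the zinc finger proteins lay near the middle of the ranking. Cxcl12 was the highest chemokine, with 465.2. Of 55 G protein-coupled receptors 1 was in the top 5%, the olfactory receptor Olfr71 (607.6).

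The genes with the 30 brightest probe sets with 1 symbol came from many of the lists, and some are on none. Beside the lung, globin, ribosomal, actin and MHC genes named above, they hold Ly6e (3270.2), a surface protein of the Ly6 family, and Cst3 (2722.5), cystatin C, an inhibitor of cysteine proteases. Gnai2 (3009) and Gnas (2644.5) encode G protein alpha subunits. App (2505) encodes the amyloid precursor protein, and Wdr92 (2882.5) a WD repeat protein. Probe sets with several symbols were more frequent at the very top. Of the 124 probe sets of the top 1%, 33 (26.6%) carry several, beside 3.19% of all probe sets. Those without a symbol were not, with 10 (8.06%) beside 9.60%. The second brightest probe set of all (5780.4) reads several adult beta globin genes together.

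How far a rank depends on the probe set can be read from the 2073 genes with several. The gap between a gene's brightest and dimmest probe set had a median of 27.9 percentile points, and for 24.8% of the genes it was over 50 points. Between probe sets of 1 gene, Spearman's rho across genes was 0.18, 0.26, 0.20 and 0.19 for 4 ways of choosing the pair (2073, 1041, 553 and 849 genes). These points share 1 array, and genes are not replicates. Of 173 top 5% genes with several probe sets, 29 had a second one in the top 5%, and 51 had their second brightest below the median.

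Named genes were among the discordant ones. Sprr1b had 2325.6 and −11.9, Rag1 had 993.3 and −4.3, and Rps24 had 2810.1 and 69.2. The bright probe set of each of these 3 has the name suffix r, a mark of probes chosen under relaxed rules. Lyz2 had 2702.8 and −4.9, Ly6e had 3270.2 and −24.9, and Cav1 had 1567.8 and 49.5. A further probe set that carries both Lyz1 and Lyz2 had 4075.9 (rank 7), and it does not separate these genes. Rps4x had 2437.7 on one probe set and −7.6, −60.1, −60.3 and −124.3 on the others. H2-D1 had closer values, 2871.9, 2580 and 1150.3, but all of its probe sets have the suffix f, of probes shared within a gene family. They may read the same pool of transcripts, so their closeness is no check on the rank of H2-D1. Sftpc, Scgb1a1, Ager and Cdh5 each have 1 probe set with 1 symbol, so their ranks have no such check.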

How the data were processed

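The authors deposited linear intensity values, with 1 for each probe set. How probes were summarised and scaled, and with which software, is not given in the sources used here. With 2% of the values trimmed from each end, the normal lung averaged 100.0. Arrays carry no read depth, and the use of 1 array limits the precision. Control probe sets at the 3′ end read 1.44 times those at the 5′ end for beta-actin and 0.957 times for Gapdh.

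The 66 manufacturer's controls were left out and the others ranked with Python 3.11.15 and pandas 2.3.3, ties sharing the better rank. GEO's platform annotation gives 1 symbol for 10833 probe sets, several for 396 and none for 1193. By gene ID, 10817 of the single symbols were found in RefSeq (GRCm38.p6) and 0 needed an update. The ranking step was tested on simulated data. The other 2 arrays were not used.

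The members and the 51 gene lists were chosen with earlier results of these data known, and 10 family lists were trimmed of related names after values were seen. The text names the 30 brightest genes and, from each list, members from the 4 highest, the median and the lowest, with the genes at the limits. Sftpb, Scd1, Napsa, Kdr, Pecam1, the collagen chains Col1a1, Col1a2 and Col3a1, Rplp0, Rpl7, Rpl7a, Rps13, Rpl32, Surf1, Surf2, Myl3, Alb and Actb were named after their values were seen. Alternatives varied the probe sets ranked, the limits of the top classes, the probe set that stands for a gene and the noise level.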

Additional observations from a re-analysis of the deposited data

How the results depend on the processing

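Over 84 recomputed counts of 16 results, 71 stayed within 1.5 times the reported count. The 6 lists followed here were chosen after values were seen. With narrower tops (2.5% and 0.5%) the genes in the upper class fell from 473 to 217, endothelial genes from 12 to 6, fibroblast genes from 13 to 7, type 1 genes from 8 to 5, type 2 genes from 11 to 7 and genes of other tissues from 7 to 4, and ribosomal genes in the top 1% class from 15 to 7. With wider tops (10% and 2%) the genes rose to 981 and endothelial genes to 19. Fewer or more probe sets in the class produce these shifts by construction. Genes of other tissues in the top 5% numbered 3 with plain probe set names only, since Alas2, Actc1, Sprr1b and Rag1 were read by probe sets with other suffixes. They numbered 4 with either the median or the dimmest probe set of each gene, since Sprr1b, Rag1 and Actc1 each have a second probe set outside the top 5%. Where a gene has an even number of probe sets, the median setting takes the dimmer of the middle pair. For a gene with a single pair it is therefore the same as the dimmest setting. With the noise level at the 99th percentile of the negative sizes (177.1), genes above it numbered 2009. The median percentile of ribosomal genes was 75.8 with the median probe set of each gene and 62.4 with the dimmest. Other lists also fell with the median probe set, S100 proteins and annexins from 90.5 to 57.5 and macrophage and monocyte genes from 75.6 to 54.2. Iron storage and antioxidant genes fell from 95.8 to 84.2 and heart muscle genes from 65.3 to 47.8. Type 2 genes went from 96.7 to 96.2. No list can rise in this setting, because the main one takes the brightest probe set. No paired analysis was possible because the ranking rests on 1 array. Signals below the noise level have no reliable order.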

Other observations

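The manufacturer's control probe sets for beta-actin, which are not part of the ranking, had signals of 4514 at the 3′ end, 3502.1 in the middle and 3140.9 at the 5′ end. The brightest ranked probe set of the same gene, Actb, had 252.1. The cause of this gap was not tested.

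The bright probe sets of Rps24 (2810.1) and Rpl7 (2206.4) derive from the same source sequence although they carry different symbols. Of 338 source sequences with several probe sets, 9 carry probe sets with different symbols. Another is shared by Rpl7a (1392.6), Surf2 (170.9) and Surf1 (102.1), which are neighbouring genes.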
